A study of Mus musculus with 3 samples.

Results

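Dlk1, H19, Igf2, Cdkn1c, Mest, Peg3, Plagl1, Grb10, Ndn and Meg3 are 10 imprinted genes that act on growth, out of 27998 genes in the count tables. They were chosen by name, and the choice was made with values of these same libraries in view, so their levels are given as a description, without a test. All 10 were found in the tables, and each had at least 10 UMIs (unique molecular identifiers, the tags that count single RNA molecules) in fibroblast-like cells in every pair of libraries.

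An imprinted gene is read from the chromosome of 1 parent only. The choice is fixed by DNA methylation laid down in the egg or sperm, and imprinted genes often lie in clusters under a shared control region. Many paternally expressed members of such clusters favour growth of the fetus, and many maternally expressed ones restrain it. Most of them are highly active in fetal tissue and fall to low levels after birth. In skin, Dlk1 is best known as a surface protein of fat cell precursors that holds back their differentiation.

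Male C57BL/6 mice, 7 to 9 weeks old and with resting hair follicles, gave the tissue, which was dorsal skin. Each side of the back received a full-thickness wound, 1.0 cm long and 0.5 cm wide. The 3 libraries, 1 each, hold cells of non-lesional skin, of wound bed at day 2 and of wound bed at day 7, freed with collagenase D and DNase1 and read with a droplet method that counts the 3′ ends of RNA. How many mice stand behind each library the sources used here do not say. With 1 library per group there is no replicate spread, no test was made, and every interval is an exact 95% interval that covers counting error only.

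The non-lesional, day 2 and day 7 libraries held 10857, 8707 and 7317 barcodes with 123088680, 138046172 and 102345327 UMIs, and 9449, 7440 and 4930 cells were kept. The libraries shared 14 to 24 barcode sequences in each pair. Fibroblast-like cells, the main source of the results below, numbered 5778 in non-lesional skin, 4155 at day 2 and 2228 at day 7. Their clusters were built with all listed imprinted genes left out of the variable genes. Nearly every cluster belonged to 1 library: clusters led by Smpd3, Gal, Myoc, Igfbp2 and C6 in non-lesional skin, by Cxcl14 and Thbd at day 2, and by Prss35 and Dlk1 at day 7. Fibroblast markers were present in all 3, with Pdgfra at 156, 176 and 180 CPM, while Ptprc, the marker of blood cells, stood at 0.222, 2.34 and 2.60 CPM. Other fibroblast markers were less even. Lum was at 1753, 85.2 and 839 CPM, Pdgfrb at 81.7, 80.9 and 158 CPM, and the sum of the listed markers at 156945, 32288 and 78863 CPM. The neutrophil gene S100a8 was at 0.409, 49.4 and 3.77 CPM in these cells. Levels are CPM: each gene's UMIs, added up for 1 library's cells of 1 class, were divided by those of all genes and scaled to the usual CPM total. They are compared between cells, not between genes.

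H19 and Mest carry microRNAs inside their genes, and these hosts had large differences at day 7, so the mature microRNAs are shown here from RefSeq (GRCm38.p6). H19 lies at chr7:142575529-142578143 on the minus strand as a long noncoding RNA, and Mest at chr6:30723547-30748465 on the plus strand as a protein-coding gene (GENCODE M21, GRCm38). The capitals mark the seed, bases 2 to 8, and the 4 seeds differ from one another. The microRNAs themselves were not measured by this assay.
mmu-miR-675-5p: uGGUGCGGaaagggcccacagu
mmu-miR-675-3p: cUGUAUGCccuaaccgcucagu
mmu-miR-335-5p: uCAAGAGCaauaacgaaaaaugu
mmu-miR-335-3p: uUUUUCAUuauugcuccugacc

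Plagl1, itself a member, encodes a zinc finger protein known to bind GC-rich DNA at other imprinted genes. RefSeq promoter windows of 250 bases before to 50 after a gene's start were in the table for 8 of the 10 genes, all but H19 and Cdkn1c. The letters GGGGCCCC, which read the same on both strands, were found in the window of 1 of these 8 genes, Peg3, and in 1.25% of 27025 genes. The Peg3 window is printed with that match in capitals, beside the window of Dlk1, the gene with the sharpest cell pattern below, which holds none. The windows are chr7:6730370-6730669 on the minus strand and chr12:109452573-109452872 on the plus strand (GRCm38.p6). A match describes letters in a window and is not a binding site.
Peg3 promoter: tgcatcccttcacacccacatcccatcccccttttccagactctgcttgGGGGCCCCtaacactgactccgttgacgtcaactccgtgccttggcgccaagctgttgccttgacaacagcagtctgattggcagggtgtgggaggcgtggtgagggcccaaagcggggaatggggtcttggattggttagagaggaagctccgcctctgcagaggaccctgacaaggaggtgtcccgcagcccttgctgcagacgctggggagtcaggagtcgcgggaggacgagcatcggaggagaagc
Dlk1 promoter: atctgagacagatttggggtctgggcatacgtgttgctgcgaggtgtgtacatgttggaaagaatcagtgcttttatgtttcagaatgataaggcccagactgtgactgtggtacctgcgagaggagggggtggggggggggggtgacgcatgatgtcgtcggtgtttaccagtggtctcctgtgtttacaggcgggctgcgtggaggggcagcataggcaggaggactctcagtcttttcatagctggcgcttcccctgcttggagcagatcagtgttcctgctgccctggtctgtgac

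In fibroblast-like cells at day 7, 5 of the 10 genes were at least 2-fold higher than in non-lesional skin, namely Dlk1, H19, Cdkn1c, Mest and Grb10, and 0 were at least 2-fold lower. At day 2, by contrast, H19 alone was at least 2-fold higher than in non-lesional skin, and Cdkn1c, Peg3 and Meg3 were at least 2-fold lower. Day 7 against day 2 had 7 higher, Dlk1, H19, Cdkn1c, Mest, Peg3, Plagl1 and Meg3, and 0 lower. A fold here is a ratio of CPM after 5 CPM was added to each, among genes with at least 10 UMIs in the pair. On simulated data this rule missed more falls than rises, so the counts of lower genes are the less complete ones. By the same rule, 8.84% of 15871 genes were higher and 4.31% lower at day 7 than in non-lesional skin. At day 2 against non-lesional skin, 11.7% of 16045 genes were higher and 6.22% lower. At day 7 against day 2, 2.79% of 16238 genes were higher and 1.64% lower. The values of these libraries were known when the 10 genes were chosen, so nothing is read from the counts. Scaling matters to the calls near 2-fold: with TMM or median-of-ratios factors Grb10 was no longer at least 2-fold higher at day 7 than in non-lesional skin, and Ndn was at least 2-fold lower. A few genes took unequal shares of the libraries: the collagen genes Col1a1 and Col1a2 reached 51450 and 62749 CPM in non-lesional fibroblast-like cells, 8701 and 9396 CPM at day 2 and 25201 and 25307 CPM at day 7.

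**Figure D1:**
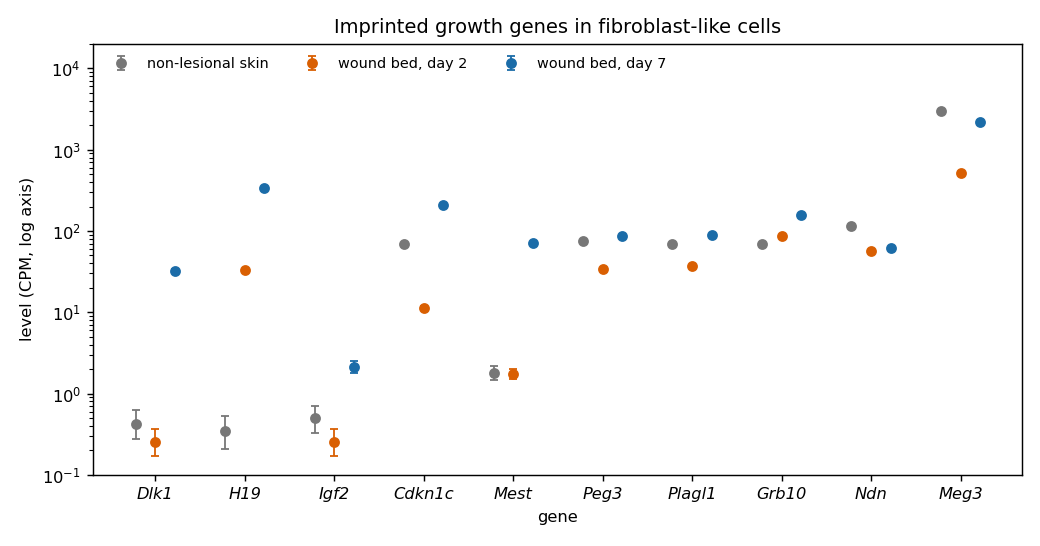
Level of each of the 10 genes in fibroblast-like cells (CPM, log axis) in the 3 libraries, with points for the summed level and bars for its exact 95% Poisson interval. Dlk1, H19 and Mest lie between 32.6 and 342 CPM at day 7 and at or below 1.81 CPM in non-lesional skin, while H19 alone of these is already raised, at 32.9 CPM, at day 2.

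Dlk1, a membrane protein with epidermal growth factor repeats that resembles a Notch ligand, lies at chr12:109452823-109463336 on the plus strand. Its level in fibroblast-like cells was 0.427 CPM in non-lesional skin, 0.254 CPM at day 2 and 32.6 CPM at day 7, from 25, 29 and 2203 UMIs. Non-lesional skin and day 2 were both near 0, and their ratio has an interval that includes equality (0.337 to 1.06). Day 7 was 76.4-fold above non-lesional skin (51.6 to 118) and 128-fold above day 2 (89.1 to 192).

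H19, a noncoding RNA of the maternal chromosome, was at 0.341 CPM in non-lesional skin, 32.9 CPM at day 2 and 342 CPM at day 7, from 20, 3754 and 23121 UMIs. It was 96.3-fold higher at day 2 than in non-lesional skin (62.3 to 158) and 10.4-fold higher at day 7 than at day 2 (10.1 to 10.8). Igf2 lies near H19 on chromosome 7 (chr7:142650766-142666816, minus strand) and encodes a fetal growth factor read from the paternal chromosome. Igf2 did not share the size of that difference: it was at 0.495 CPM in non-lesional skin, 0.254 CPM at day 2 and 2.13 CPM at day 7, from 29, 29 and 144 UMIs. Its ratio at day 7 over non-lesional skin was 4.31 (2.87 to 6.66), and with 5 CPM added the log2 fold was 0.38. That ratio rests on which cells were counted: in all barcodes with a UMI of the fibroblast receptor Pdgfra, which take in cells of other classes, Igf2 was at 2.58 CPM at day 7 and 2.54 CPM in non-lesional skin, with a log2 fold of 0.01.

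Cdkn1c and Grb10 restrain growth. Cdkn1c (chr7:143458339-143461050, minus strand) encodes a protein that blocks cyclin-dependent kinases. It was at 69.0 CPM in non-lesional skin, 11.3 CPM at day 2 and 207 CPM at day 7. Day 2 was thus the low point, 6.08-fold below non-lesional skin (5.71 to 6.48), and day 7 was 18.3-fold above day 2 (17.3 to 19.4) and 3.00-fold above non-lesional skin (2.90 to 3.11). Grb10 (chr11:11930508-12038683, minus strand) encodes an adaptor that binds the insulin and IGF receptors and dampens their signal. It was at 69.2, 87.5 and 157 CPM in non-lesional skin, day 2 and day 7, a ratio of 2.27 at day 7 over non-lesional skin (2.19 to 2.35).

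Mest, a paternally expressed gene for an enzyme-like protein of the endoplasmic reticulum, was at 1.81 CPM in non-lesional skin, 1.73 CPM at day 2 and 70.9 CPM at day 7, from 106, 198 and 4793 UMIs. Unlike H19, it had no difference at day 2 that counting error could not cover (ratio 0.959, 0.753 to 1.23), and it was 39.2-fold higher at day 7 than in non-lesional skin (32.3 to 48.0).

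The zinc finger genes Peg3 (chr7:6703892-6730431, minus strand) and Plagl1 (chr10:13060504-13131694, plus strand) had low points at day 2. Peg3 was at 74.3, 34.4 and 87.4 CPM in non-lesional skin, day 2 and day 7, and Plagl1 at 68.9, 36.8 and 89.0 CPM. The log2 folds at day 7 against non-lesional skin, with 5 CPM added, were 0.22 for Peg3 and 0.35 for Plagl1, and both turned negative, at -0.20 and -0.07, under median-of-ratios scaling. Peg3 was 2.16-fold lower at day 2 than in non-lesional skin (2.07 to 2.26), and Plagl1 1.87-fold lower (1.79 to 1.96). Ndn (chr7:62346569-62350262, plus strand) encodes necdin, a protein that holds back the cell cycle in neurons. Like Meg3, described next, it was lower in both wound libraries, at 115 CPM in non-lesional skin, 57.5 CPM at day 2 and 62.3 CPM at day 7.

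Meg3 (chr12:109541001-109571726, plus strand) is the maternal noncoding RNA of the cluster that holds Dlk1. It was at 2986 CPM in non-lesional skin, 516 CPM at day 2 and 2181 CPM at day 7. Day 2 was 5.78-fold below non-lesional skin (5.73 to 5.84), and day 7 was 4.22-fold above day 2 (4.18 to 4.27). The neighbours Meg3 and Dlk1 therefore had different orders over the libraries, Meg3 being highest in non-lesional skin and Dlk1 at day 7. Igf2, Cdkn1c, Mest, Ndn and Meg3 overlap genes of the opposite strand in the table, and the sources used here do not say whether strand was used in counting, so reads of such partners cannot be told apart.

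Within the day 7 fibroblast-like cells, most of the Dlk1 lay in 1 cluster. This cluster of 641 cells was led by Dlk1, Mgp and H19, although the imprinted Dlk1 and H19 took no part in building it. The other large one, of 1470 cells, was led by Prss35, Tnn and Lrrc15. Dlk1 was at 157 CPM in the cluster led by Dlk1 and 2.24 CPM in the one led by Prss35, and the cluster led by Dlk1 held 93.5% of the Dlk1 UMIs of day 7 fibroblast-like cells. Because leading genes name a cluster, these differences are a description. Plagl1 was at 225 and 55.8 CPM in the same order of clusters, H19 at 824 and 224 CPM, and Cdkn1c at 377 and 168 CPM. Igf2 was at 7.16 and 0.948 CPM, Meg3 at 3127 and 1931 CPM, and Ndn at 93.3 and 53.9 CPM. Mest ran the other way, at 46.6 CPM in the cluster led by Dlk1 and 79.2 CPM in that led by Prss35. Peg3, at 84.6 and 88.0 CPM, had an interval of the ratio that includes equality (0.900 to 1.03), and Grb10 was at 179 and 152 CPM.

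The cluster led by Dlk1 was low in Acta2, the smooth muscle actin that marks myofibroblasts, at 85.2 CPM against 1781 CPM in the cluster led by Prss35. It was also low in Mki67, a gene of dividing cells, at 21.6 CPM against 101 CPM. Without the cluster led by Dlk1, a comparison added after its values were seen, day 7 Dlk1 was at 2.64 CPM, 6.20-fold above non-lesional skin (4.03 to 9.90), and its log2 fold with 5 CPM added was 0.49, under 2-fold. The level of 2.64 CPM is below that of the day 7 immune cell classes, 4.34 to 12.8 CPM, so no expression is read from it. H19 was then at 226 CPM and 662-fold above non-lesional skin, Mest at 76.8 CPM and 42.5-fold above, and Cdkn1c at 166 CPM and 2.41-fold above. Plagl1 was then at 56.3 CPM, 1.22-fold below non-lesional skin, so the direction of its day 7 difference rests on that cluster. Ndn was 2.10-fold below non-lesional skin without it.

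**Figure D2:**
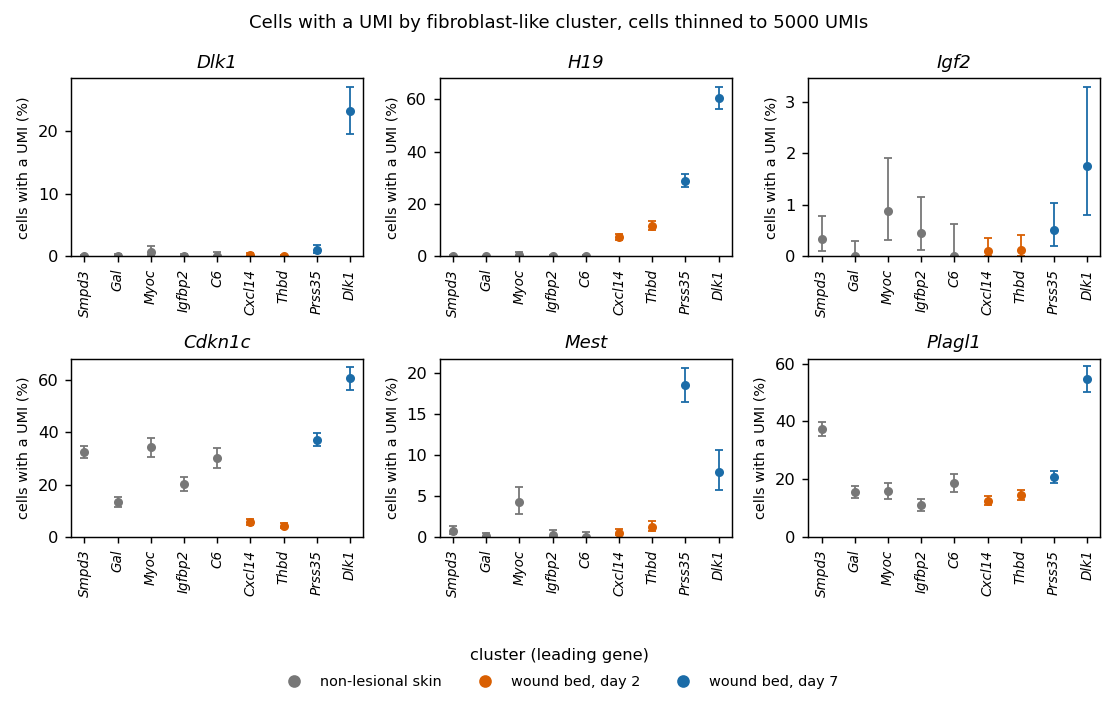
Share of cells with at least 1 UMI (%) for 6 of the genes in each fibroblast-like cluster, after each cell was thinned to 5000 UMIs, with exact 95% binomial intervals and colours for the libraries. The day 7 cluster led by Dlk1 had Dlk1 in 23.3% of cells and Plagl1 in 54.7%, while Mest was in 7.95% there and in 18.5% of cells of the cluster led by Prss35.

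Thinning each cell to 5000 UMIs made shares comparable between clusters of different depth. H19 was found in 60.5% of thinned cells of the day 7 cluster led by Dlk1 and in 28.9% of those of the cluster led by Prss35. In the day 2 clusters H19 was in 7.46% of thinned cells of the cluster led by Cxcl14 and in 11.7% of the one led by Thbd. In the 5 non-lesional clusters it was in 0% to 0.587% of thinned cells. H19 was uneven between cells: in the day 7 cluster led by Prss35 the median cell held 1 H19 UMI and the highest 241, and at day 2 the median was 0 with a highest of 53.

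Non-lesional fibroblast-like clusters differed from one another in the paternally expressed genes. Plagl1 was at 156 CPM in the cluster led by Smpd3 and at 27.5 to 47.5 CPM in the other 4. Peg3 had the opposite place there, at 31.9 CPM in the cluster led by Smpd3 and 69.6 to 125 CPM in the other 4. Ndn was at 175 CPM in the cluster led by Smpd3 and 189 CPM in that led by Myoc, and at 71.8 to 88.3 CPM elsewhere. The few Mest UMIs of non-lesional fibroblast-like cells were mostly in the cluster led by Myoc, at 11.2 CPM, with 0.115 to 1.05 CPM in the other 4. A cluster led by Coch, with 701 non-lesional and 191 day 7 cells, stayed unnamed because a dermal papilla marker was among its leading genes. In its cells H19 was at 17.6 CPM at day 7 against 0.612 CPM in non-lesional skin, Mest at 10.1 against 2.25 CPM, and Peg3 at 177 against 113 CPM. These day 7 levels of H19 and Mest are below the 115 CPM of H19 in lymphoid-like cells and the 16.1 CPM of Mest in monocyte/macrophage-like cells of day 7, so no expression is read from them. Of the 46 UMIs behind the 16.1 CPM, 1 cell held 27, and lymphoid-like cells of day 7 held Mest at 9.51 CPM (5.81 to 14.7).

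Across cell classes the members had different places. In pericytes, the contractile cells that wrap small vessels, Dlk1 was higher at day 7 than in any other class of at least 50 cells, at 129 CPM. It was 3.95-fold above the fibroblast-like level of that library (3.56 to 4.38). In the pericyte-like cluster led by Rgs5, which held cells of both libraries, Dlk1 was at 130 CPM in 196 day 7 cells against 1.50 CPM in 234 non-lesional cells, from 435 and 2 UMIs, a ratio of 86.6 (23.8 to 717). After thinning to 5000 UMIs Dlk1 was found in 32.9% of 167 day 7 cells of this cluster and in 0 of 136 non-lesional cells. H19 was at 36.5 CPM there at day 7, below the 115 CPM of lymphoid-like cells of that library, and had 0 UMIs in non-lesional skin, and no expression is read from it. Meg3 was at 2059 CPM at day 7 against 223 CPM, 9.22-fold higher (8.21 to 10.4). Members also differed downward in the cluster: Igf2 was at 2.40 against 18.1 CPM, Plagl1 at 12.6 against 32.3 CPM, and Peg3 at 20.1 against 41.4 CPM. When barcodes with fewer than 500 genes were left out, the pericyte-like cells split largely by library. The cluster led by Rgs5 then held 171 day 7 and 15 non-lesional cells, and one led by Sparcl1 held 29 and 223. The differences between libraries given here therefore cannot be told apart from differences between kinds of pericyte-like cell.

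Mest was highest in endothelial-like cells, the lining of blood vessels, at 350 CPM in 147 day 7 cells, 4.94-fold above day 7 fibroblast-like cells (4.53 to 5.37). Lymphatic endothelial-like cells of day 7 held it at 156 CPM and skeletal muscle-like cells of non-lesional skin at 174 CPM, and both intervals overlap. Both endothelial classes had fewer than 50 cells in the other libraries, so no change over time could be given.

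Skeletal muscle-like cells, 80 cells of non-lesional skin led by Chodl, Chrdl2 and the muscle stem cell genes Myf5 and Pax7, were the highest class for Peg3, at 564 CPM, and Igf2, at 79.5 CPM. Plagl1 was at 89.4 CPM, with an interval that overlaps day 7 fibroblast-like cells. Cdkn1c was at 514 CPM there, but 2 cells held 124 and 71 of its 207 UMIs, and without them it was at 31.9 CPM (16.5 to 55.7), below day 7 fibroblast-like cells. H19 was at 57.1 CPM in them from 23 UMIs, against 0.341 CPM in fibroblast-like cells of the same library, and Dlk1 was at 0. Dermal papilla-like cells, the hair follicle's signalling cells, came next for Igf2, at 21.7 CPM at day 7 and 23.5 CPM in non-lesional skin, with overlapping intervals. These cells lay in different clusters in the libraries, one led by Wif1 at day 7 and one led by Slc26a7 in non-lesional skin. They held 43.9% of the Igf2 UMIs of kept non-lesional cells. Cdkn1c was at 70.3 CPM in them at day 7 against 173 CPM in non-lesional skin. In monocyte/macrophage-like cells of day 2 Plagl1 was at 86.2 CPM from 73 UMIs, 2.34-fold above fibroblast-like cells of that library (1.83 to 2.95). At day 7 these cells held it at 30.8 CPM, 34.7% of the fibroblast-like level, and in non-lesional skin they had 1 UMI.

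**Figure D3:**
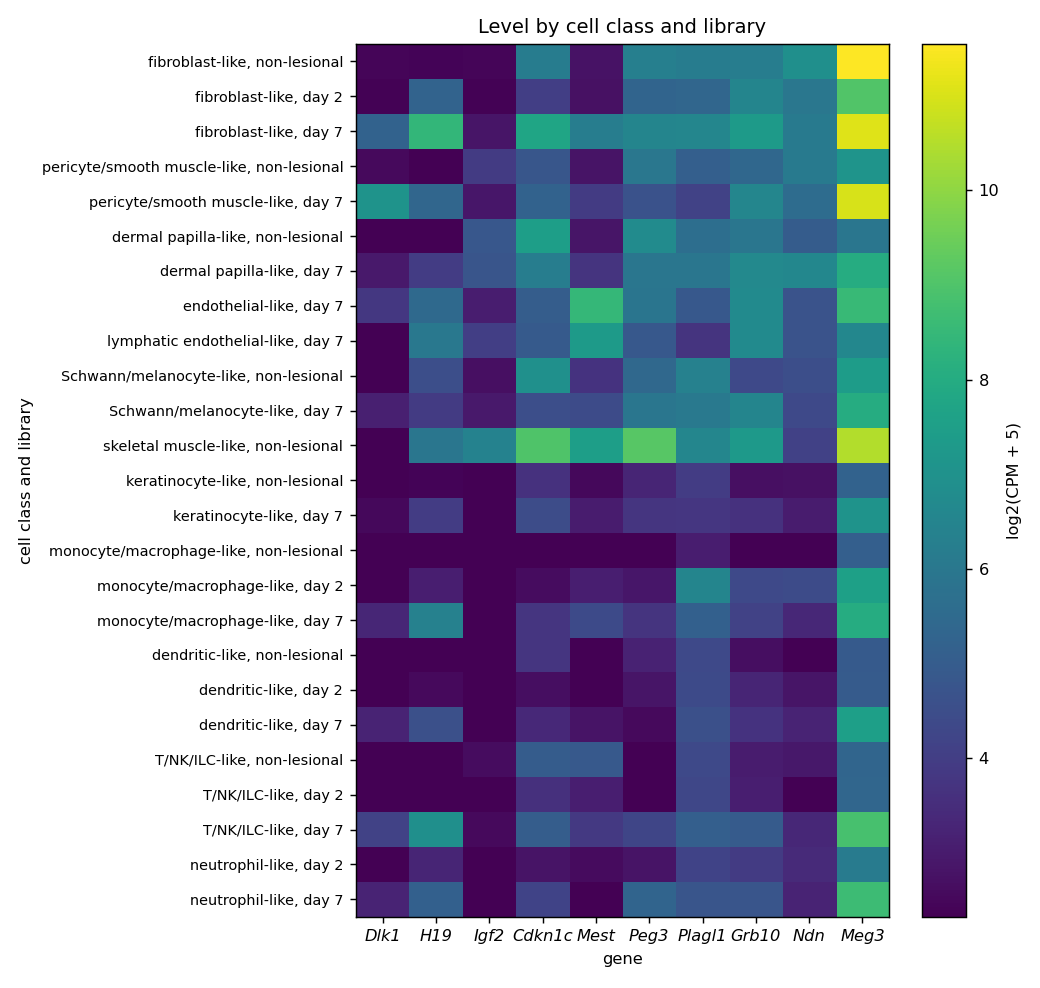
Level of the 10 genes as log2(CPM + 5) by cell class and library, where yellow is high and dark blue is near 0. Named classes with at least 50 cells in a library are drawn, except erythroid-like cells. All genes share 1 colour scale, whose top is Meg3 in non-lesional fibroblast-like cells, at 2986 CPM. Within its own column, Dlk1 is highest in pericyte-like and then fibroblast-like cells of day 7, and Mest in endothelial-like cells of day 7. Peg3 and Igf2 are highest in skeletal muscle-like cells of non-lesional skin, where the high Cdkn1c field rests on 2 cells.

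UMIs of the members were also found in immune cells, and where these UMIs came from was not tested. In T, NK or innate lymphoid-like cells of day 7 (682 cells, median 2302.5 UMIs, against 27716.5 in fibroblast-like cells) H19 was at 115 CPM and Dlk1 at 12.8 CPM. These are 33.5% and 39.4% of the fibroblast-like levels of that library, with Dlk1 resting on 27 UMIs. Single cells carried much of this: 2 cells held 81 and 52 of the 241 H19 UMIs, and 2 held 10 and 9 of the Dlk1 UMIs. Without the 2 highest cells of each gene, a setting added after seeing the data, H19 was at 52.4 CPM and Dlk1 at 3.85 CPM. Monocyte/macrophage-like cells of day 7 held H19 at 77.5 CPM, or 21.2 CPM without their 2 highest cells, and dendritic-like cells held it at 19.04 CPM. In neutrophil-like cells of day 7 H19 was at 30.4 CPM, 8.88% of the fibroblast-like level. After thinning to 1000 UMIs, H19 was in 2.63% of the lymphoid-like cells and 19.5% of fibroblast-like cells of day 7, and Mest in 0.822% and 5.55%. At day 2, neutrophil-like cells held H19 at 4.80 CPM and no Dlk1 or Igf2 UMI. In keratinocyte-like and endothelial-like cells of day 7, Dlk1 was at 0.790 and 9.05 CPM and H19 at 10.7 and 39.6 CPM. These levels are below those of the lymphoid-like cells with all cells counted, and no expression is read from them.

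The wound fibroblasts held many dividing cells, and Cdkn1c, Plagl1, Grb10 and Ndn are known to restrain division. Dividing cells were taken as those with a UMI of Mki67 or Top2a after thinning to 5000 UMIs. At day 7, Cdkn1c was at 99.6 CPM in 449 dividing cells and 253 CPM in 1548 other fibroblast-like cells, a ratio of 0.393 (0.375 to 0.413). Dlk1 had a ratio of 0.294 (0.256 to 0.336), H19 0.454, Mest 0.456, Plagl1 0.472 and Meg3 0.640. Peg3, Grb10 and Ndn had ratios between 0.795 and 0.842. Of the 449 dividing cells 398 were in the cluster led by Prss35, so these ratios also hold the difference between clusters, and they were taken again within clusters after the values were seen. Within the cluster led by Prss35, Cdkn1c had a ratio of 0.451 (0.428 to 0.476), Mest 0.363, H19 0.490 and Plagl1 0.633. Dlk1 had a ratio of 0.451 (0.273 to 0.718) there, from 23 and 95 UMIs at 1.25 and 2.78 CPM. Both levels are below the 4.34 to 12.8 CPM of day 7 immune cell classes, so nothing is read from that Dlk1 ratio. Within the cluster led by Dlk1, with 41 dividing and 475 other cells, Cdkn1c again had a ratio below 1, 0.519 (0.451 to 0.595), as did Plagl1, 0.810 (0.697 to 0.937). Dlk1, H19 and Mest had ratios above 1 there, of 1.27 (1.09 to 1.47), 1.17 (1.09 to 1.25) and 1.82 (1.43 to 2.30). The ratios of H19 and Mest in the cluster led by Prss35 were below 1, but UMIs were uneven between cells. In the whole cluster led by Dlk1, the highest cell held 83 Dlk1, 163 H19 and 140 Mest UMIs. The 41 dividing cells together held 207, 1002 and 84. The ratios were not taken again without the highest cells, so no reversal is read from them. At day 2, with 1640 dividing and 2170 other cells, the order was not the same. H19 was at 36.6 and 29.4 CPM, a ratio of 1.24 (1.17 to 1.33). Cdkn1c had a ratio of 0.804 (0.719 to 0.899), and Plagl1 and Grb10 had ratios of 1.03 and 1.02 with intervals that include equality. Within the day 2 clusters led by Cxcl14 and Thbd, Cdkn1c had ratios of 0.729 (0.633 to 0.840) and 0.918 (0.759 to 1.11). The interval for the cluster led by Thbd includes equality. H19 had ratios of 1.29 and 1.29 in these clusters. Fewer than 50 non-lesional cells were dividing. Day 7 dividing cells were deeper than the others, with medians of 39886 and 28095 UMIs.

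Co-detection was read in barcodes with at least 1 UMI of Pdgfra, the fibroblast receptor, before any other filter: 5138 in non-lesional skin, 4150 at day 2 and 2998 at day 7, with medians of 10070.5, 28688.5 and 23779.5 UMIs. After thinning to 5000 UMIs, with shallower barcodes left out, 4581, 3891 and 2434 remained. Dlk1 was then found in 0.0873%, 0.180% and 5.88% of them, H19 in 0.0655%, 9.79% and 32.6%, and Mest in 1.05%, 0.874% and 13.1%. Cdkn1c was in 25.2%, 4.99% and 38.6%. Dlk1, H19 and Mest were thus largely found at day 7, and Cdkn1c was scarce at day 2.

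Barcodes held more of the 10 genes at day 7 than in the other libraries. The 10 were chosen with values of these libraries in view, so nothing further is read from this order. The mean number per thinned barcode was 2.37 in non-lesional skin, 1.80 at day 2 and 3.21 at day 7. At least 5 of the 10 were found in 3.25%, 0.900% and 21.2% of barcodes. Without thinning, at least 5 were found in 17.8%, 37.1% and 59.2%, so the place of day 2 above non-lesional skin in that count turned round once depth was made equal.

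**Figure D4:**
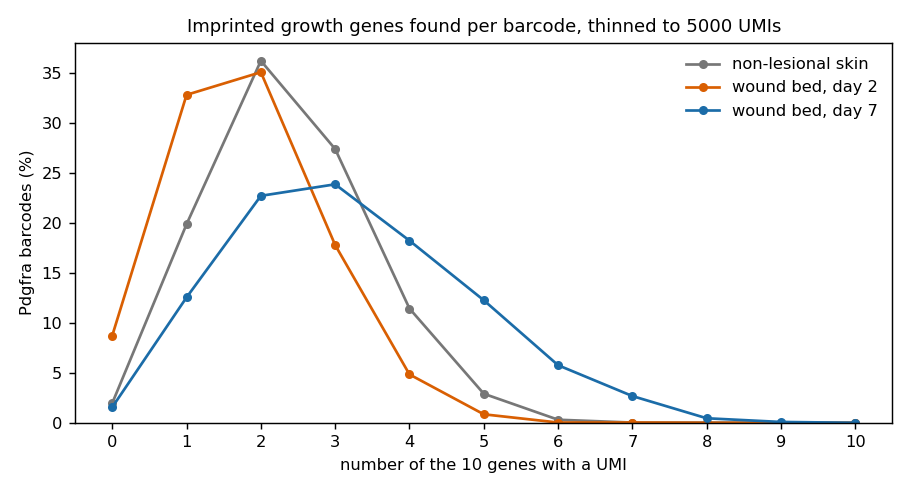
Share of Pdgfra barcodes (%) by the number of the 10 genes with at least 1 UMI, after thinning to 5000 UMIs, for the 3 libraries. The day 7 curve lies to the right, with 63.2% of barcodes holding at least 3 of the genes, against 42.0% in non-lesional skin and 23.5% at day 2. The genes were chosen with values of these libraries in view.

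At day 7, by share of barcodes, Dlk1 went with some members and not with others. H19 was found in 74.1% of the 143 thinned barcodes with Dlk1 and in 29.99% of the 2291 without. Plagl1 was in 62.9% of barcodes with Dlk1 and 26.3% of those without, and Cdkn1c in 69.2% and 36.7%. Mest was in 10.5% of barcodes with Dlk1 and 13.3% of those without, and Peg3 in 26.6% and 31.0%. The intervals of the Mest shares overlap (5.99 to 16.7 and 11.9 to 14.8). Its level ran the other way, at 90.9 CPM from 65 thinned UMIs with Dlk1 and 63.2 CPM without. Acta2 was in 26.6% of barcodes with Dlk1 and 65.1% of those without. The medians of depth before thinning were 25466 UMIs with Dlk1 and 28422 without.

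**Figure D5:**
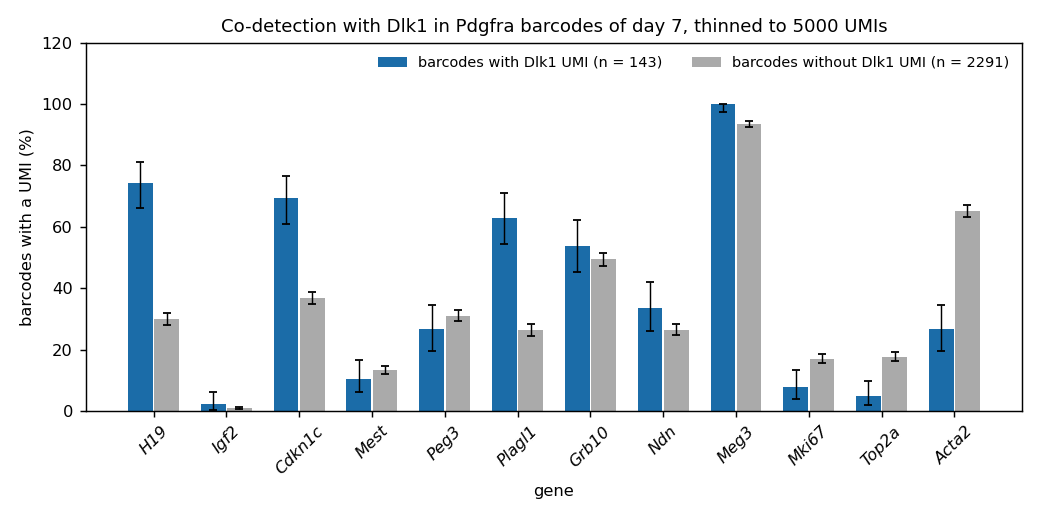
Share of thinned day 7 Pdgfra barcodes (%) with a UMI of each gene, for barcodes with and without a Dlk1 UMI, with exact 95% binomial intervals. H19, Plagl1 and Cdkn1c are found in a larger share of barcodes with Dlk1, Mest and Peg3 are not, and Acta2 is found in 26.6% against 65.1%.

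By share of barcodes, Mest went with H19 at day 7, while its shares with and without Dlk1 had overlapping intervals. It was in 21.9% of the 793 day 7 barcodes with H19 and in 8.90% of the 1641 without, and Plagl1 was in 47.4% and 19.3%. At day 2, with 381 barcodes with H19, Cdkn1c was in 5.51% with H19 and 4.93% without, and Plagl1 in 15.7% and 13.9%, with overlapping intervals. The intervals did not overlap for Peg3, in 9.45% with H19 and 14.3% without, for Grb10, in 42.0% and 34.4%, or for Mki67, in 33.6% and 26.3%. Dlk1 and Mest were in 0 of those 381, which allows a share of up to 0.787% by 3 counts of the total and up to 0.964% by the exact interval. In non-lesional skin, H19 was in 3 of 4581 barcodes, too few for a pairing. The pairs with the most shared barcodes were those with Meg3, found in 93.1%, 76.2% and 94.0% of thinned barcodes of the 3 libraries, joined at day 2 by Grb10 with Ndn in 343 barcodes.

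The genes whose levels most resembled each member over the 27 groups of class and library were found by Pearson's r of log2(CPM + 5). The groups share libraries, so r is a description. Dlk1 was most like Adra2a (r = 0.85), a receptor for adrenaline and noradrenaline, then Adamts12 and Mgp. H19 was most like Fibin (0.81), Adam12 and Lrrc15. Mest was most like the endothelial genes Gata2 (0.78), Sema6a and Podxl. Cdkn1c was most like another member, Peg3 (0.85), then Ptprd and Ddah2, in a profile that includes the skeletal muscle-like level resting on 2 cells, and Peg3 was most like Ddah2 (0.88). Meg3 was most like Mirg (0.93), a noncoding RNA of its own cluster, then the collagen genes Col1a2 and Col3a1. Igf2 was most like Kcnn3 (0.91), Plagl1 like Zfhx4 (0.80), Grb10 like Mxra8 (0.94), and Ndn like Fkbp7 (0.92).

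Other imprinted genes, listed with these results known, mostly differed less than 2-fold in fibroblast-like cells, as did most genes. Over all genes, 8.84% were higher and 4.31% lower at day 7 than in non-lesional skin. At day 2 these shares were 11.7% and 6.22%, and nothing is read from the list counts. Of 22 other paternally expressed genes with at least 10 UMIs in the pair, 2 were higher and 0 lower at day 7 than in non-lesional skin, with a median log2 fold of 0.04 beside 0.14 over all genes. At day 2, 3 were higher and 2 lower. Slc38a4, an amino acid transporter, was higher in both wound libraries, at 26.7 CPM at day 2 and 36.6 CPM at day 7 against 7.05 CPM in non-lesional skin. Of the other maternally expressed genes, 2 of 18 were higher and 1 lower at day 7. Igf2r, the receptor that takes up and degrades Igf2, was at 173 CPM at day 7 against 64.3 CPM in non-lesional skin. Mirg was at 13.9 CPM at day 2 against 68.0 CPM in non-lesional skin, a ratio of 0.205, beside 0.173 for Meg3.

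The genes that act with Igf2 and Grb10 were also listed with these results known, so nothing is read from their counts. Of 19 genes of the insulin-like growth factor system, 0 were higher and 9 lower at day 2 than in non-lesional skin. Their median log2 fold was -0.86 beside 0.06 over all genes. At day 7, 2 were higher and 5 lower. Over all genes, 11.7% were higher and 6.22% lower at day 2, and 8.84% and 4.31% at day 7. Day 7 against day 2 had 6 of 19 higher and 0 lower, beside 2.79% and 1.64% of all genes. Those lower than in non-lesional skin included binding proteins that hold the growth factors outside the cell. Igfbp2 was at 0.184 CPM at day 2 and 9.04 CPM at day 7 against 111 CPM in non-lesional skin, and Igfbp5 at 69.0 and 264 CPM against 1590 CPM. Igf1, the main such growth factor after birth, was at 235 CPM at day 7 against 71.8 CPM at day 2. Of 5 adaptor genes related to Grb10, 0 passed 2-fold in either direction at day 2 or day 7 against non-lesional skin.

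Among cyclin-dependent kinase inhibitors, the family of Cdkn1c, 2 of 6 were higher and 2 lower at day 7 than in non-lesional skin. Over all genes, 8.84% were higher and 4.31% lower at day 7, and 11.7% and 6.22% at day 2. The lists given here were also chosen with these results known. Cdkn1a was at 92.7 CPM at day 7 against 362 CPM, Cdkn1b at 53.4 against 116 CPM, and Cdkn2b at 30.4 against 6.77 CPM. At day 2, 0 of the 6 were higher and 2 lower. Of the Notch genes, listed because Dlk1 resembles a Notch ligand, 3 of 15 were higher and 0 lower at day 7, among them the ligand Jag1, at 44.4 against 16.4 CPM. Hes1, a target of Notch, was at 695 CPM at day 2 against 140 CPM in non-lesional skin, a library in which Dlk1 was near 0, and at 306 CPM at day 7. All 14 listed genes of proliferation were higher in both wound libraries than in non-lesional skin, and 13 of 14 myofibroblast genes were higher at day 7, with Acta2 at 1408 CPM against 7.22 CPM.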

How the data were processed

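The deposited tables hold raw counts of UMIs for each barcode and gene. Per the submitters' processing notes the authors used Cell Ranger 3.0.2 with mm10, then Seurat 3.0, while the file headers name Cell Ranger 5.0.0, and which version made the tables is open. How cells were called the sources used here do not say.

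Barcodes with at least 200 genes and at most 10% mitochondrial UMIs were kept, and the top 0.8% per 1000 barcodes by Scrublet score (848, 505 and 212 in non-lesional skin, day 2 and day 7) were removed as doublets. The score's own threshold marked 373, 1 and 0, so in the wound libraries it had not worked. Leiden clustering (scanpy 1.11.5, leidenalg 0.10.2, 2000 variable genes without imprinted ones, 30 components, 20 neighbours, resolution 1, no integration) gave 34 clusters, named "-like" from marker lists. Names were rebuilt here. UMIs were summed per class and library into CPM. A call means a ratio of at least 2 after adding 5 CPM, among genes with at least 10 UMIs in the pair. Intervals are Poisson for levels, conditional binomial for ratios and Clopper-Pearson for shares. Cells were thinned by random draws to 5000 UMIs, or 1000 for the background shares. With 1 library per group, no test was made. The fold procedure was tried on simulated data for day 7 against non-lesional skin, with 50 genes per set fold. Set rises of 4-fold and 2.5-fold passed 2-fold in 100% and 60% of genes. Set falls to 0.25 and 0.4 of the level passed in 74% and 44%. Genes set to no difference passed in 0%. The rule thus missed more falls than rises. TMM (edgeR 4.0.16) and median-of-ratios (DESeq2 1.42.0) factors served only as alternative scalings.

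All 10 members are named. Of each other list, the genes at least 2-fold different with at least 20 CPM in the higher library qualified, at most 6 per list and pair, and the text gives some of them. The 3 most alike genes were taken per member. Members, lists and tests were chosen with earlier results of these data known. The sources do not say whether animals were pooled.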

Additional observations from a re-analysis of the deposited data

How the results depend on the processing

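No paired analysis was possible because each group is 1 library. All 30 log2 folds of the members between libraries were recomputed under 10 other settings, of which 1 was added after seeing the data, with the cluster led by Coch counted as fibroblast-like. The sign was the same under all of them for 26 of the 30. The 4 others were all under 2-fold: Dlk1 at day 2 against non-lesional skin (-0.05, up to 0.01 with thinned cells), Ndn at day 7 against day 2 (0.11, down to -0.01 with median-of-ratios scaling), and Peg3 (0.22, down to -0.20) and Plagl1 (0.35, down to -0.07) at day 7 against non-lesional skin, the last pair under both other scalings. The number of members at least 2-fold lower at day 2 than in non-lesional skin was 3, and 5 with TMM scaling, 5 with median-of-ratios scaling and 5 with cells thinned to 5000 UMIs, the additions being Plagl1 and Ndn. The number lower at day 7 than in non-lesional skin was 0, and 1 with TMM scaling and 1 with median-of-ratios scaling, namely Ndn. Under both scalings Grb10 was no longer at least 2-fold higher at day 7 than in non-lesional skin. These scalings move the median of all genes in that pair, 0.14 on the log2 scale, to 0.02 and 0.01, and the share of genes higher and lower to 5.10% and 7.05% with TMM and 4.81% and 7.57% with median-of-ratios. At day 2 against non-lesional skin they gave 8.44% and 8.67%, and 8.17% and 8.99%. With 1 CPM in place of 5 CPM added, Igf2 was also at least 2-fold higher at day 7 than in either other library, while its log2 fold at day 7 against non-lesional skin was 0.01 in barcodes with a Pdgfra UMI, against 0.38 in fibroblast-like cells. The depth limits Dlk1, H19 and Igf2 in non-lesional skin, which rest on 20 to 29 UMIs, and every ratio against them is as wide as its interval.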

Other observations

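Mest was also found in a small T cell-like cluster led by Cd3g and Cd7, genes of the T cell surface. It was at 43.0 CPM in 53 day 7 cells, from 5 UMIs (14.0 to 100.4 CPM), and at 165 CPM in 73 non-lesional cells, from 40 UMIs (118 to 225 CPM). The non-lesional level was above that of fibroblast-like cells of the same library, at 1.81 CPM. H19 had 4 UMIs in the day 7 cells of this cluster and 0 in the non-lesional ones, and Cdkn1c had 0 and 5.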
